A study of Homo sapiens with 9 samples.

Results

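LRATD2, TENT5B, OPRD1 and CCDC88C are 4 of the 18970 genes listed in count tables that followed newly made RNA after acute loss of the transcription factor SOX9. They were chosen by the size of the drop in their labelled reads (T>C reads at 3h and 24h against 0h), so their changes over time are described here with no test and support nothing beyond that choice. The cells were cranial neural crest cells (CNCCs) that had been differentiated from the human embryonic stem cell line H9, with a degradation tag on SOX9. The tag binds the small molecule dTAGV-1, which brings the protein to a ubiquitin ligase. Every sample, 0h included, carried the tagged SOX9, and all were CNCCs at passage 4. The 3 groups are named 0h, 3h and 24h for the time in dTAGV-1 (500 nM), with DMSO as the vehicle control. The labels put relative SOX9 at 100% for 0h and at 0% for the treated groups. The same 3 cultures stood in every group, S9CC13_R6, S9CC47_R5 and S9CC47_R6, which came from 2 clones of the line (S9CC13, S9CC47) and 2 differentiation batches (R5, R6). Samples are named by culture and time, and values for the 3 cultures are always given in that order.

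The assay was SLAM-seq. Cells took up 4-thiouridine (100 uM) for 2 h. Samples of the 3h group were given it 1 h into the depletion and those of the 24h group 22 h into it. After alkylation, an incorporated 4-thiouridine is read as a T>C conversion in sequencing of 3′ ends. T>C reads therefore come mostly from RNA made during the labelling. Every sample was labelled, so T>C mismatches of other origin could not be measured. Unconverted reads, total reads minus T>C reads, come mostly from older RNA but also from new RNA whose sequenced stretch took up no label. The T>C share, T>C reads as a percent of total reads, is high for a gene whose RNA is replaced quickly, and it also depends on how many T bases the sequenced stretch holds. When transcription of a gene drops, new RNA drops first, while RNA made before is lost only as fast as it decays.

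The 4 genes have little in common by function. LRATD2 encodes an LRAT domain protein, related by sequence to lecithin retinol acyltransferase. TENT5B belongs to a family of nucleotidyltransferases that lengthen poly(A) tails. OPRD1 is the delta opioid receptor, a receptor for enkephalins that signals through inhibitory G proteins and binds arrestins. CCDC88C, also known as Daple, binds Dishevelled and takes part in WNT signalling.

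In hg38 (GENCODE release 44), TENT5B lies on the minus strand of chromosome 1 from 27005020 to 27012850, with 2 exons and a last exon of 1938 bases. OPRD1 lies on the plus strand of chromosome 1 from 28812170 to 28871267, with 3 exons and a last exon of 8526 bases. CCDC88C lies on the minus strand of chromosome 14 from 91271323 to 91417844, with 30 exons and a last exon of 2331 bases. Reads in these libraries come from the 3′ ends of transcripts, so they report mostly on the last exon. A long non-coding RNA on the opposite strand (ENSG00000233427) overlaps the last exon of OPRD1. The sources used here do not say whether counting used strand. If it ignored strand, reads of the 2 cannot be told apart.

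The 250 bases before the start site are shown for 3 of the genes, to set the members' different early rates beside the sequence from which each is transcribed. They were taken from RefSeq (GRCh38.p14) and run 5′ to 3′ along the gene's own strand. Capitals mark the SOX family core letters ACAAT and ACAAAG on either strand (reverse forms ATTGT and CTTTGT), the CCAAT box on either strand (reverse form ATTGG) and TATAA on the gene's strand.
TENT5B, chr1:27012851-27013100, minus strand: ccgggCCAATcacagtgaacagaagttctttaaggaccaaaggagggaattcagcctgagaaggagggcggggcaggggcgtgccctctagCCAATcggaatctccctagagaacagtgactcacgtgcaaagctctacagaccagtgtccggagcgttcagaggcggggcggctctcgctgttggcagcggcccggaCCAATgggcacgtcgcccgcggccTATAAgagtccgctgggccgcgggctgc
OPRD1, chr1:28811920-28812169, plus strand: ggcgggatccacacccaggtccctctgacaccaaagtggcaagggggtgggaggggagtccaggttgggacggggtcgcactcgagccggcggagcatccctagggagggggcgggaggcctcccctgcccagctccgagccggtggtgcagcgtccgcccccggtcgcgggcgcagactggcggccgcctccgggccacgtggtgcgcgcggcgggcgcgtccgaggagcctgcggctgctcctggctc
CCDC88C, chr14:91417821-91418070, minus strand: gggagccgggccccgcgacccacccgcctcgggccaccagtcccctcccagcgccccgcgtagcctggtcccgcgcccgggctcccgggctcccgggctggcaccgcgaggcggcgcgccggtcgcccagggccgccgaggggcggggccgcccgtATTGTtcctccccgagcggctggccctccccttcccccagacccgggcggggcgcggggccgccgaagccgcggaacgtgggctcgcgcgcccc
The 3 promoters share little by these letters. TENT5B holds CCAAT 3 times and TATAA once, with the TATAA beginning 28 bases before the start. OPRD1 holds none of the letters searched. CCDC88C holds ATTGT once, beginning 94 bases before the start. Among 35116 RefSeq promoters of the same length, 24.6% hold ACAAT or its reverse, 13.7% ACAAAG or its reverse, 32.0% the CCAAT box and 13.6% TATAA. GC content was 62.8% for TENT5B, 76% for OPRD1 and 83.6% for CCDC88C, against a median of 58% over all promoters.

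Total reads per library ranged from 16955633 to 28782678 and T>C reads from 3130673 to 5475800. T>C reads made up 15.9% to 21.3% of a library, with a mean of 19.1% at 0h, 17.9% at 3h and 20.5% at 24h. All 10 of the CNCC markers looked at were at or above 10 CPM (counts scaled to equal library totals) on average, and the 4 neural progenitor markers were each under 1 CPM. Of the pluripotency markers, POU5F1, NANOG and UTF1 were at or near 0, while LIN28A stood at 241 to 374 CPM and DPPA4 at 34.2 to 44.6. Among the chondrocyte markers, COL9A1 stood at 19.6 to 39.4 CPM, and ACAN, MATN3, MATN1 and CNMD were each under 1 CPM. Summed over that list, CPM was 30.8 to 40.2 at 0h, 33.9 to 39.7 at 3h and 20.9 to 24.3 at 24h. SOX9 RNA itself stood higher after dTAGV-1, going from 9492, 9961 and 9914 normalized T>C reads at 0h to 18399, 15048 and 17069 at 3h, and its RNA does not check the loss of the protein. Normalized reads are raw counts over the size factor that DESeq2 gave the library. A gene was called at a DESeq2 adjusted p under 0.1, and of 12034 genes tested in T>C reads, 0.789% were called lower at 3h and 1.01% higher. At 24h, 2.59% were called lower and 2.38% higher. The split at 3h depended on the scaling, with 95 genes lower and 121 higher by size factors from T>C reads, and 147 and 84 by size factors from total reads. All 4 members passed the filter on low counts in T>C, unconverted and total reads. In bulk samples, less RNA per cell and fewer cells that make the RNA cannot be told apart.

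LRATD2 had the steepest drop. It lies on the minus strand of chromosome 8 from 126552443 to 126558478, with 2 exons and a last exon of 5043 bases, which the long non-coding RNA PCAT1 overlaps on the other strand, so that, as for OPRD1, reads of the 2 cannot be told apart if counting ignored strand. Normalized T>C reads were 321.9, 332.5 and 344.3 at 0h, 51.6, 19.1 and 38.5 at 3h, and 16.1, 10.4 and 16.3 at 24h. Unconverted reads were 170.1, 215.8 and 220.8 at 0h, 30.7, 20.3 and 20.0 at 3h, and 2.91, 4.61 and 9.49 at 24h. Both kinds of read were lower at 3h than at 0h and lower again at 24h in every culture, and no sample of one time overlapped another time. The log2 fold change of T>C reads was -3.29 (SE 0.27) at 3h and -4.54 (SE 0.33) at 24h. That of unconverted reads was -3.08 (SE 0.31) and -5.15 (SE 0.45), and that of total reads -3.23 (SE 0.22) and -4.74 (SE 0.28). By 3h both kinds of LRATD2 read stood at nearly the same part of their 0h level: 11.0% ± 5.15 of T>C reads and 12.2% ± 5.09 of unconverted reads (SD, n = 3). By 24h, 4.29% ± 1.02 of T>C reads and 2.72% ± 1.39 of unconverted reads were left. The 24h values rest on few reads, since the raw unconverted counts at 24h were 3, 4 and 11.

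**Figure D1:**
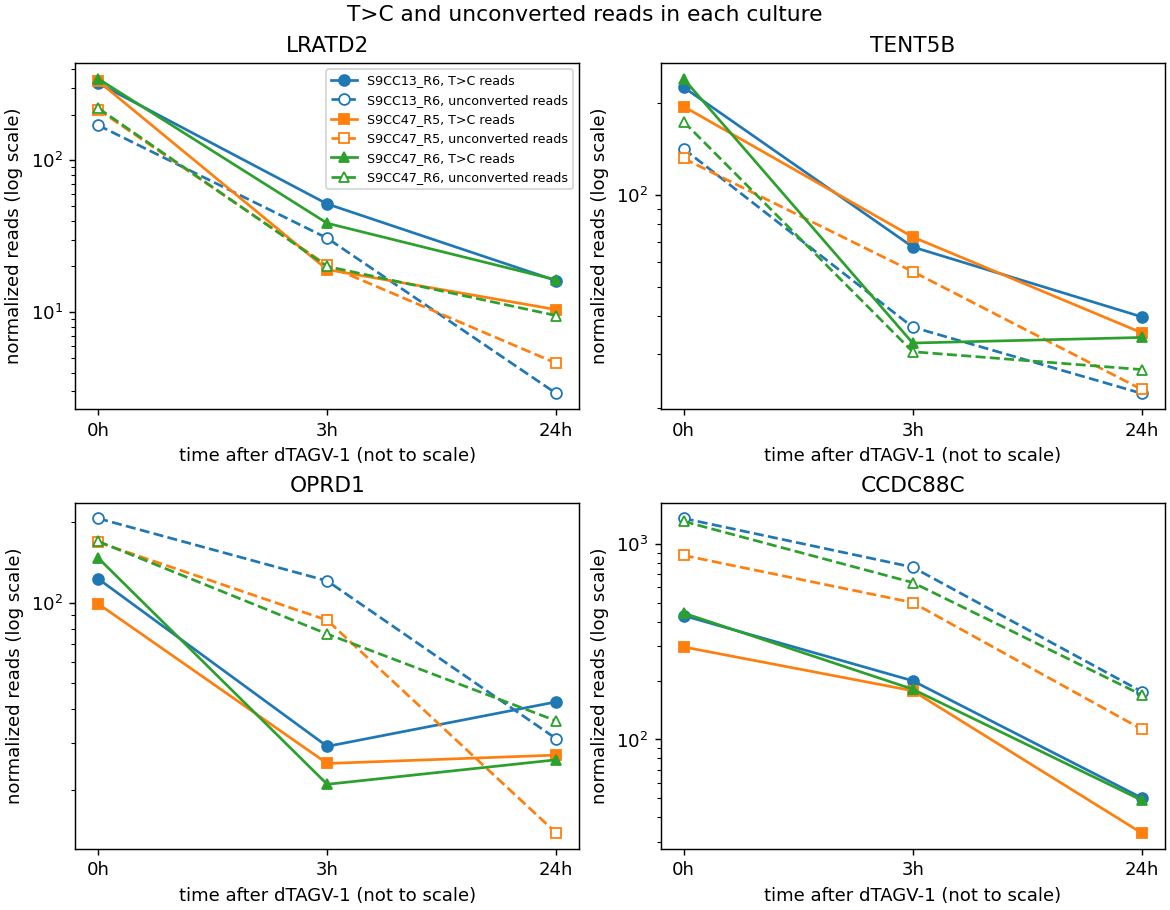
Normalized T>C reads (filled symbols, solid lines) and unconverted reads (open symbols, dashed lines) of each gene on a log axis against time after dTAGV-1, with 1 line per culture. For LRATD2 and TENT5B both kinds of read drop together by 3h; for OPRD1 the T>C reads drop first, from 99.2 or more to 29.1 or less; for CCDC88C the lines run nearly parallel down to 24h.

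TENT5B had most of its drop by 3h. Its normalized T>C reads were 225.0, 194.7 and 239.9 at 0h, 67.5, 72.8 and 32.7 at 3h, and 39.8, 35.3 and 34.1 at 24h. Unconverted reads were 141.4, 131.6 and 173.6 at 0h, 36.8, 56.0 and 30.6 at 3h, and 22.3, 23.0 and 26.7 at 24h. The 0h samples lay above all others, and the T>C value of S9CC47_R6 at 3h lay just under all 24h values, so that culture had reached its 24h level by 3h. The log2 fold changes at 3h and 24h were -2.07 (SE 0.26) and -2.40 (SE 0.27) for T>C reads. They were -1.87 (SE 0.30) and -2.61 (SE 0.33) for unconverted reads, and -2.02 (SE 0.22) and -2.48 (SE 0.23) for total reads. As for LRATD2, the 2 kinds of read had dropped to about the same part by 3h, to 27.0% ± 12.2 of the 0h level for T>C reads and 28.8% ± 12.7 for unconverted reads (SD, n = 3). The cultures spread widely at 3h: 30.0%, 37.4% and 13.6% of T>C reads were left. At 24h they lay close together, at 17.7%, 18.1% and 14.2%, with 16.7% ± 2.15 of T>C reads and 16.2% ± 1.11 of unconverted reads left.

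OPRD1 was the gene in which T>C and unconverted reads parted at 3h. Normalized T>C reads were 122.9, 99.2 and 147.0 at 0h, 29.1, 25.1 and 21.0 at 3h, and 42.7, 27.0 and 25.9 at 24h. Unconverted reads were 206.7, 168.4 and 169.7 at 0h, 120.8, 86.1 and 76.5 at 3h, and 31.1, 13.8 and 36.2 at 24h. T>C reads had reached their lowest value at 3h in all 3 cultures, while unconverted reads were still on the way down and overlapped between no 2 times. The log2 fold change of T>C reads was -2.37 (SE 0.33) at 3h and -1.82 (SE 0.33) at 24h, and that of unconverted reads -0.96 (SE 0.26) and -2.70 (SE 0.31). Total reads, the sum of both, had log2 fold changes of -1.39 (SE 0.20) and -2.24 (SE 0.22). At 3h, 21.1% ± 5.96 of T>C reads and 51.5% ± 6.68 of unconverted reads were left (SD, n = 3), ranges that did not overlap. The log2 change of T>C reads minus that of unconverted reads was -1.32 ± 0.32 (SD, n = 3) at 3h, and it was below 0 in 3 of 3 cultures. For LRATD2, TENT5B and CCDC88C the same difference was -0.19 ± 0.51, -0.12 ± 0.29 and -0.16 ± 0.19, each with a spread larger than its mean. At 24h the difference for OPRD1 was 0.89 ± 1.04, within its spread, and that for TENT5B was 0.03 ± 0.14. For LRATD2 the 24h difference was 0.75 ± 0.72, above 0 in every culture but resting on few reads. For CCDC88C it was -0.20 ± 0.04, below 0 in every culture.

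CCDC88C was the least reduced of the 4 genes at 3h in T>C and total reads, but it dropped far by 24h. Its early drop was still among the largest of all genes averaging 50 or more normalized reads. At 3h it held rank 12 of 10049 in unconverted reads and rank 18 of 10631 in total reads. Normalized T>C reads were 430.3, 297.5 and 443.3 at 0h, 199.8, 177.6 and 180.9 at 3h, and 50.3, 33.2 and 48.9 at 24h. Unconverted reads were 1353, 874.9 and 1306 at 0h, 761.5, 502.0 and 635.6 at 3h, and 175.8, 112.9 and 169.1 at 24h. Neither kind of read overlapped between any 2 times, and S9CC47_R5 was the lowest culture at each. The log2 fold change of T>C reads was -1.06 (SE 0.17) at 3h and -3.10 (SE 0.21) at 24h, that of unconverted reads -0.91 (SE 0.11) and -2.89 (SE 0.13), and that of total reads -0.94 (SE 0.10) and -2.94 (SE 0.12). At 3h, 49.0% ± 9.70 of T>C reads and 54.1% ± 4.75 of unconverted reads were left (SD, n = 3). At 24h the cultures came to nearly one value, 11.3% ± 0.341 of T>C reads and 12.9% ± 0.0482 of unconverted reads, and T>C reads were the lower of the pair in 3 of 3 cultures.

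**Figure D2:**
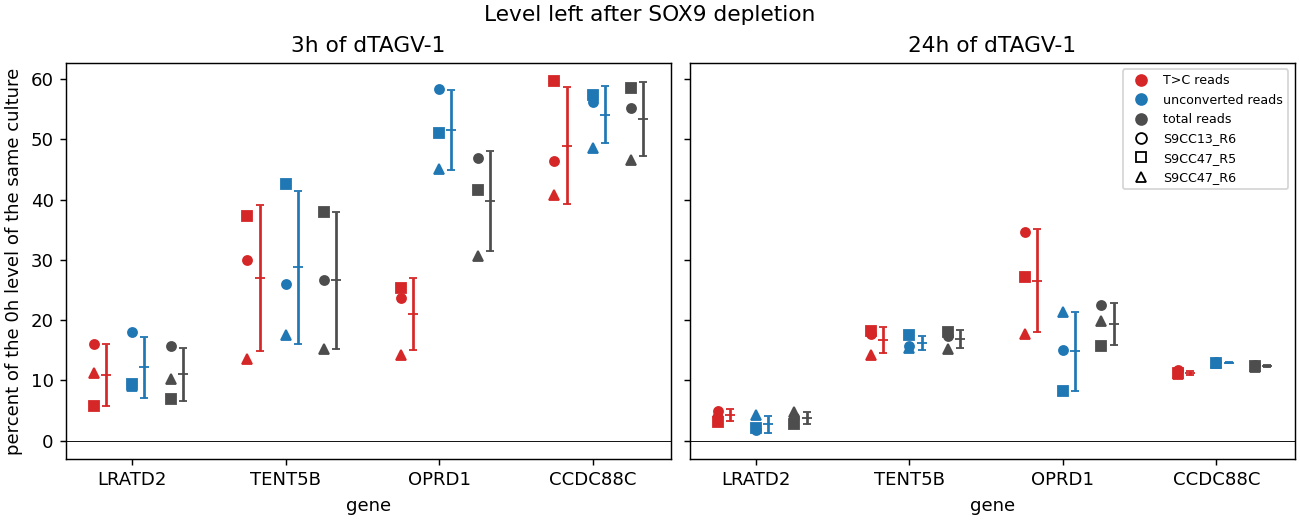
Normalized reads left at 3h and at 24h as a percent of the same culture's 0h level, for T>C (red), unconverted (blue) and total reads (grey), with 1 symbol per culture and the mean ± SD of 3 cultures beside it. The red and blue symbols overlap at 3h for LRATD2, TENT5B and CCDC88C and are apart for OPRD1 (21.1% against 51.5% on average).

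Set side by side, the genes fell into different orders early and late. In total reads, 11.0% ± 4.45 of LRATD2, 26.6% ± 11.4 of TENT5B, 39.8% ± 8.34 of OPRD1 and 53.4% ± 6.15 of CCDC88C were left at 3h. At 24h, 3.84% ± 0.996 of LRATD2, 12.4% ± 0.155 of CCDC88C, 16.8% ± 1.49 of TENT5B and 19.4% ± 3.41 of OPRD1 were left. CCDC88C, the least reduced at 3h, was thus lower than TENT5B in every culture at 24h, while TENT5B and OPRD1 did not differ beyond their spread. The part of the 24h log2 change in total reads that was already present at 3h was 81.3% for TENT5B, 68.2% for LRATD2, 62.2% for OPRD1 and 31.9% for CCDC88C in the fit. Over cultures it ran from 56.5% to 99.8% for TENT5B, 57.3% to 74.6% for LRATD2 and 47.4% to 73.1% for OPRD1. These ranges overlapped, and that of CCDC88C, 25.7% to 36.4%, lay below them. In T>C reads the part in the fit was 86.6%, 72.4%, 130% and 34.2%, in the same order of genes. Over cultures, the T>C ranges of TENT5B (57.6% to 102%) and LRATD2 (61.1% to 82.5%) overlapped. That of OPRD1 was 106% to 136%, and that of CCDC88C 23.5% to 40.7%. A value above 100% for OPRD1 means that its T>C reads were lower at 3h than at 24h.

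The decline of unconverted reads over the first 3h can be put as a halving time, on the assumption of a steady exponential decline from the addition of dTAGV-1. It was 0.97 h for LRATD2 (0.87 to 1.21 over cultures), 1.60 h for TENT5B (1.20 to 2.44), 3.11 h for OPRD1 (2.61 to 3.87) and 3.28 h for CCDC88C (2.89 to 3.74). The first pair did not overlap the second pair, while OPRD1 and CCDC88C overlapped each other almost fully. Unconverted reads hold unlabelled new RNA together with old RNA, so these are rates of decline and not measured half-lives.

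The T>C share at 0h, before any depletion, put the genes in the same order. It was 64.2%, 62.6% and 61.3% for LRATD2, 60.2%, 61.7% and 58.4% for TENT5B, 36.1%, 39.0% and 46.8% for OPRD1, and 23.2%, 27.0% and 25.7% for CCDC88C. LRATD2 and TENT5B were close to each other and apart from OPRD1, which was apart from CCDC88C in every culture. The means were 62.7% ± 1.46, 60.1% ± 1.62, 40.7% ± 5.56 and 25.3% ± 1.93 (SD, n = 3). Among 11708 genes tested in total reads, whose median share was 27.1%, these means lay at percentiles 96.3, 94.9, 74.6 and 46.3. RNA of LRATD2 and TENT5B was therefore among the most heavily labelled of the table, and that of CCDC88C was ordinary. Counted the other way, unconverted reads made up 37.3%, 39.9%, 59.3% and 74.7% of total reads at 0h, in the same order of genes as the 11.0%, 26.6%, 39.8% and 53.4% of total reads left at 3h. The shares and the changes at 3h rest on the same 0h reads, and 0h T>C reads entered the choice of the genes. The orders are thus not independent of each other, and their match is given as a description.

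The number of T bases did not order the shares. T made up 38.4% of the last 250 transcript bases in LRATD2, 26.8% in TENT5B, 26.4% in OPRD1 and 39.2% in CCDC88C, against a median of 32% over genes. TENT5B had a high share with few T bases, and CCDC88C a middling share with many. Across the 11708 genes the T content and the share had a Spearman correlation of 0.38, given as a description, since genes are not independent replicates.

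**Figure D3:**
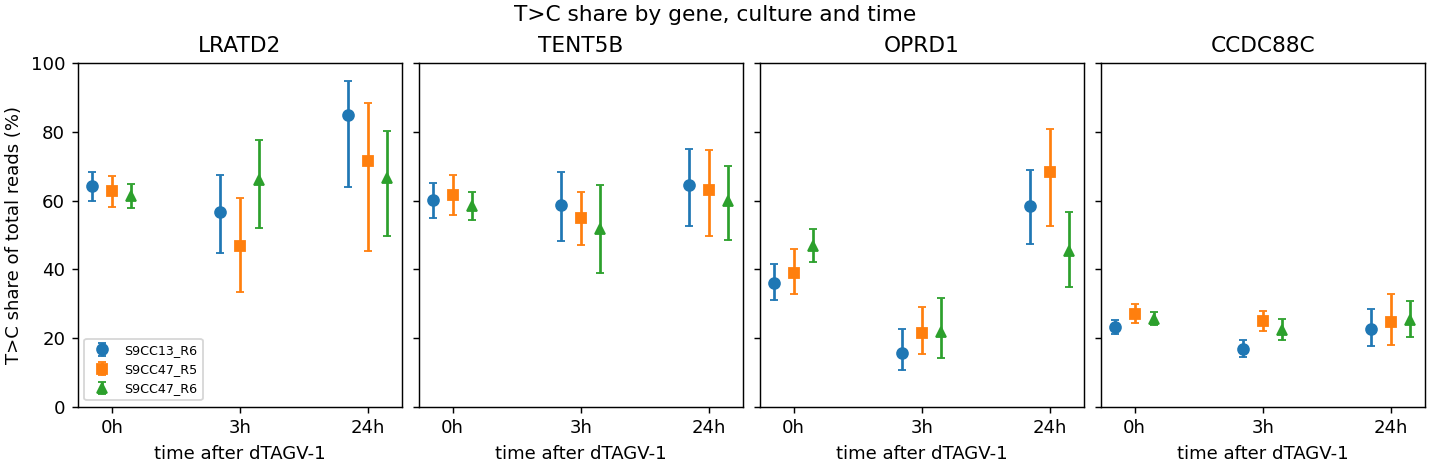
T>C share of total reads for each gene, culture and time, with Wilson 95% intervals that cover counting error only. OPRD1 goes from 36.1% to 46.8% at 0h down to 15.7% to 21.7% at 3h and up to 45.5% to 68.4% at 24h; CCDC88C stays between 16.9% and 27.0%.

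The share then moved in one gene more than in the others. OPRD1's share was 15.7%, 21.5% and 21.7% at 3h and 58.4%, 68.4% and 45.5% at 24h. All 3 values at 3h lay below all values at 0h, and the 95% Wilson interval of each (highest bound 31.7%, in S9CC47_R6) lay below that of the same culture at 0h. At 24h the share of S9CC47_R6 was back inside its 0h interval of 42.1% to 51.7%, and the intervals of S9CC13_R6 and S9CC47_R5 lay above those at 0h. TENT5B's share stayed at 51.9% to 58.6% at 3h and 59.7% to 64.6% at 24h. LRATD2's share was 56.5%, 46.8% and 66.0% at 3h and 85.0%, 71.4% and 66.7% at 24h. Only 14 to 33 total LRATD2 reads lay behind each 24h share, and the interval in S9CC13_R6 ran from 64.0% to 94.8%. CCDC88C's share was 16.9%, 24.9% and 22.3% at 3h and 22.6%, 24.6% and 25.2% at 24h.

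Other genes show whether a high share at 0h and a rapid early drop in unconverted reads went together in general. Of the 95 genes called lower in T>C reads at 3h, 94 were also tested in unconverted reads. Across these 94, the members among them, the Spearman correlation of the 0h share with the log2 fold change of unconverted reads at 3h was -0.19, a weak relation given as a description. Their median log2 fold change was -0.70 in T>C reads and -0.37 in unconverted reads. Over all genes tested in unconverted reads, 0.408% were called lower at 3h and 6.29% at 24h, and in total reads 0.769% and 7.86%.

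**Figure D4:**
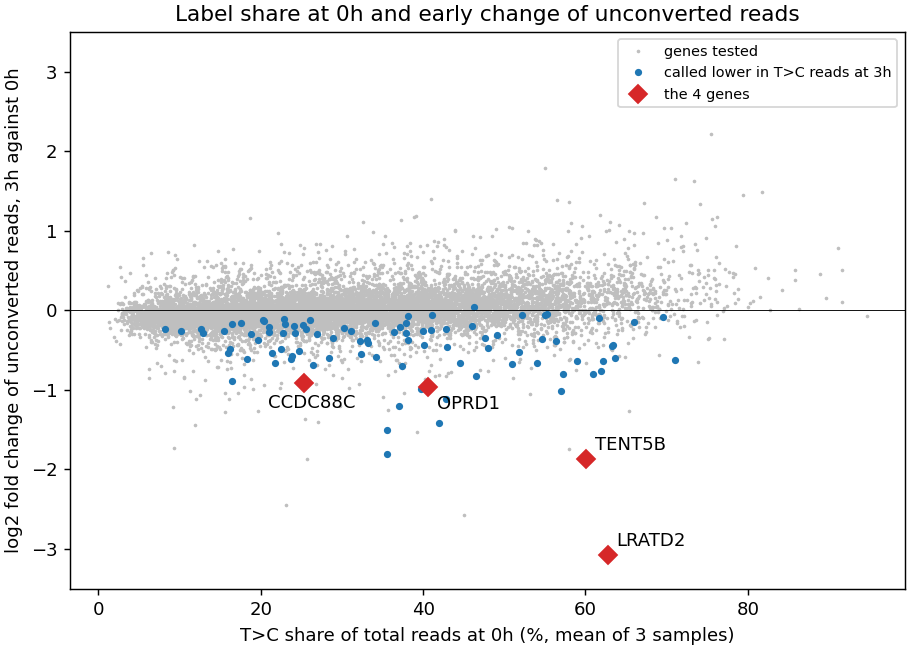
T>C share at 0h against the log2 fold change of unconverted reads at 3h, for 11352 genes (grey), the genes called lower in T>C reads at 3h (blue) and the 4 genes (red diamonds). LRATD2 and TENT5B lie at the lower right, with log2 fold changes of -3.08 and -1.87. CCDC88C and OPRD1 lie at -0.91 and -0.96, with shares of 25.3% and 40.7% against a median of 27.1%.

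Among the 8674 genes whose normalized T>C reads averaged 50 or more, LRATD2 had the largest drop in T>C reads at both times. OPRD1, TENT5B and CCDC88C held ranks 3, 4 and 15 at 3h and ranks 11, 5 and 3 at 24h. The largest falls of other genes called at 3h were those of ITGA6, an integrin subunit, at -2.46 (SE 0.40, DESeq2 adjusted p = 1.97e-07), FREM1, an extracellular matrix protein, at -2.01 (SE 0.27, adjusted p = 9.50e-11), and RASL12, a small GTPase of the RAS superfamily, at -1.67 (SE 0.26, adjusted p = 6.94e-08). In ITGA6 and FREM1, as in OPRD1, the change in unconverted reads at 3h was well under that in T>C reads, at -0.55 (SE 0.20, not called, adjusted p = 0.298) and -0.66 (SE 0.23, not called, adjusted p = 0.231), while for RASL12 it was -1.11 (SE 0.20, adjusted p = 9.65e-06). The T>C share of ITGA6 went from 37.8%, 31.8% and 27.5% at 0h to 6.59%, 11.4% and 14.1% at 3h. Without S9CC13_R6, the fall of ITGA6 in T>C reads was not called at 3h (adjusted p = 0.239) or at 24h (adjusted p = 0.160). At 24h the largest falls were those of PRELP, a leucine-rich repeat proteoglycan (-3.14, SE 0.41, adjusted p = 5.32e-12), ITGA6 (-2.71, SE 0.42, adjusted p = 2.03e-08) and RHOJ (-2.26, SE 0.33, adjusted p = 1.40e-09). CCDC88C lay beside PRELP in size at 24h, and beside it in share (25.3% against 24.8% at 0h).

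The cultures allow a comparison that the choice of genes did not use: whether total reads differ between clones and batches at matched times. Between the clones of batch R6 (S9CC13_R6 against S9CC47_R6), 3.38% of the 11708 genes were called in a fit with culture and time as terms, and none of the 4 genes was among them. Their log2 differences lay between -0.08 for LRATD2 (95% interval -0.59 to 0.42) and 0.29 for OPRD1 (-0.14 to 0.73). For TENT5B it was 0.07 (-0.42 to 0.55) and for CCDC88C 0.13 (-0.12 to 0.37). Between the batches of clone S9CC47 (R5 against R6), 1.65% of genes were called, CCDC88C among them. CCDC88C was lower in R5 by a log2 difference of -0.47 (SE 0.13, interval -0.72 to -0.21, DESeq2 adjusted p = 0.030). It was lower at 3 of 3 times, by -0.59, -0.26 and -0.57. The other differences between batches were -0.35 for LRATD2 (-0.86 to 0.16), 0.16 for TENT5B (-0.32 to 0.65) and -0.19 for OPRD1 (-0.64 to 0.26). Each side holds 3 libraries of 1 culture, so these p-values measure the spread of libraries within a culture.

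The nearest genes on the chromosome show whether a change was shared by a neighbourhood. Taking the 3 nearest tested protein-coding genes on each side, the 4 genes had 24 neighbours, with start sites 19.2 to 3885 kb away. Of these, 1 was called lower in T>C reads at 3h, and 1 was called lower and 1 higher at 24h. Over all genes tested in T>C reads, 0.789% were called lower at 3h, and 2.59% lower and 2.38% higher at 24h. The neighbour called lower in T>C reads was TRNP1, whose start lies 19.2 kb from that of TENT5B. TRNP1 is a nuclear protein that takes part in the control of progenitor proliferation. Its normalized T>C reads were 108.4, 125.8 and 123.4 at 0h, 27.8, 64.1 and 39.7 at 3h, and 30.3, 34.3 and 19.3 at 24h. No sample at 3h or 24h reached the 0h range. At 3h the log2 fold change was -1.48 (SE 0.31), with a DESeq2 adjusted p of 0.000323. At 24h it was -2.13 (SE 0.34), with an adjusted p of 4.09e-08, and all 3 cultures were lower each time. Without S9CC13_R6 neither time was called (adjusted p = 0.952 at 3h and 0.341 at 24h), nor was 3h without S9CC47_R6 (0.163).

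TRNP1 and TENT5B dropped side by side in T>C reads but not in total reads. The log2 fold change of total TRNP1 reads was -0.72 at 3h and -1.61 at 24h, against -2.02 and -2.48 for TENT5B. Both TRNP1 values were called in total reads (DESeq2 adjusted p = 3.21e-05 at 3h and 5.24e-24 at 24h). TRNP1's T>C share was 21.4%, 25.7% and 24.5% at 0h, well under the 58.4% to 61.7% of TENT5B. At 3h it was 8.02%, 17.4% and 13.9%, lower in all 3 cultures. The neighbour called higher in T>C reads was TMEM200B, 311.7 kb from OPRD1, at 0.53 (SE 0.19, adjusted p = 0.0976) at 24h. That call was lost in 5 of 11 alternatives, among them each that left out a culture (adjusted p 0.443 to 1.00). In total reads at 24h, TMEM200B was called higher at 0.55 (DESeq2 adjusted p = 0.000162). MYC, near LRATD2, was called higher at 0.91 (adjusted p = 0.0203), and EPB41, near OPRD1, lower at -0.29 (adjusted p = 0.00145). Over all genes, 7.12% were called higher and 7.86% lower in total reads at 24h. Values with a culture left out are not given for these calls. No neighbour of CCDC88C or LRATD2 was called in T>C reads against 0h. For LRATD2 the nearest tested start was 1128 kb away.

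**Figure D5:**
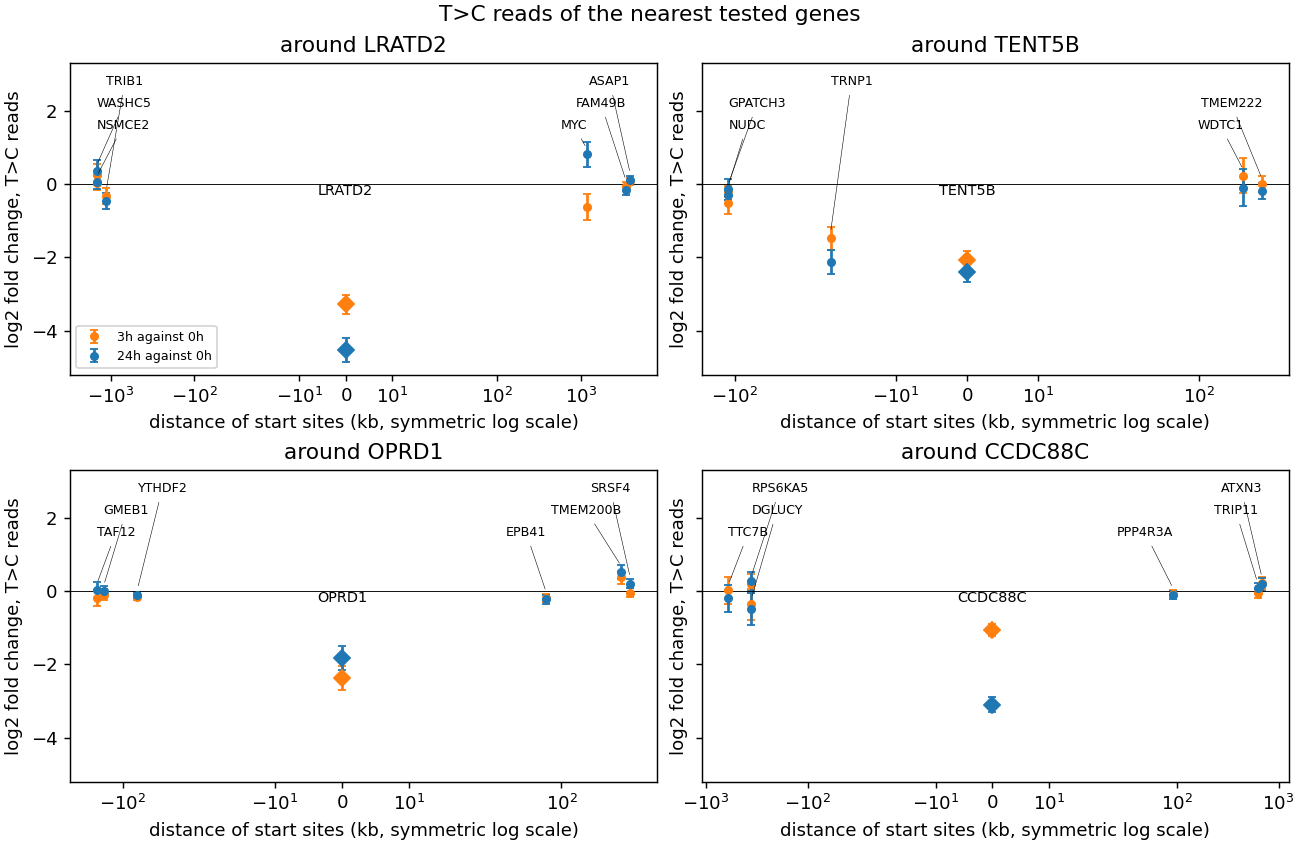
Log2 fold change of T>C reads at 3h (orange) and 24h (blue) against 0h for each of the 4 genes (diamonds) and for 23 of their 24 neighbours (circles), with bars of 1 SE. The x axis is the distance between start sites in kb on a symmetric log scale, negative toward lower coordinates. TRNP1, 19.2 kb from TENT5B, is the one neighbour far below 0 at both times.

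The genes' relatives and partners were looked at through 4 lists, written with earlier results of these data known. Of the LRAT domain genes, PLAAT1 and PLAAT3, which act on phospholipids, were tested of 7, and neither was called in T>C reads at 3h or 24h. In total reads PLAAT1 was called higher at 24h (0.51, SE 0.17, adjusted p = 0.0322). Over all genes, 1.11% were called higher in total reads at 3h and 7.12% at 24h, and 0.769% and 7.86% were called lower. In T>C reads, 0.789% of all genes were called lower and 1.01% higher at 3h, and 2.59% and 2.38% at 24h. Of 13 nucleotidyltransferases that add A or U tails, 11 were tested in T>C reads. At 3h, 1 was called lower, TENT5A, at -0.47 (SE 0.15, adjusted p = 0.0744), lower in 3 of 3 cultures. With culture as a replicate block its adjusted p was 0.244, and at 24h the value of -0.42 was not called (adjusted p = 0.110) but was with the block (adjusted p = 0.0346). In total reads, where 10 were tested, TENT5A was the list's one call at each time. Its total-read log2 fold change at 3h was -0.60 (SE 0.12, adjusted p = 0.000232). That at 24h was -0.58 (SE 0.13, adjusted p = 0.000245), and all 3 cultures were lower each time. TENT5A had a mean of 568 total reads per library, while the family's other members TENT5C and TENT5D had 3.89 and 0.33. The list's median log2 fold change was -0.05 at 3h and -0.03 at 24h, against -0.01 and 0.00 over all genes tested.

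Of 13 genes on the list of opioid receptors, peptide precursors, G proteins and arrestins, 7 were tested in T>C reads, and the other opioid receptors and the precursors were barely detected. The receptors OPRM1 and OPRK1 and the peptide precursors PENK, PDYN, POMC and PNOC had means of 0.11 to 1.33 total reads per library, and the related receptor OPRL1 had 17.7. The list's G proteins and arrestins had means from 50.1 reads for GNAO1 to 5829 for GNAI2. None of the 7 was called at 3h in T>C reads, and at 24h, when 2.59% of all genes were called lower, 2 were called lower. These were GNAI2, an inhibitory G protein subunit, at -0.40 (SE 0.13, adjusted p = 0.0589), and ARRB2, an arrestin, at -0.65 (SE 0.18, adjusted p = 0.0174), each lower in 3 of 3 cultures. GNAO1, another inhibitory G protein subunit, was at -1.87 (SE 0.71, adjusted p = 0.144) at 24h, and with culture as a replicate block its adjusted p was 0.0526. In total reads none of 6 tested was called at 3h. Over all genes, total reads of 7.86% were called lower at 24h and of 7.12% higher. At 24h GNAI2, ARRB2 and GNAO1 were called lower, GNAO1 at -1.15 (SE 0.35, adjusted p = 0.0162), and GNAI1, a related subunit, was called higher at 0.59 (SE 0.18, adjusted p = 0.0168). The list's median was -0.17 at 3h and 0.10 at 24h.

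Of 24 relatives of CCDC88C and members of the WNT receptor complex, 23 were tested in T>C reads. At 3h, when 0.789% of all genes were called lower and 1.01% higher, 2 were called lower and none higher. These were the WNT receptors ROR1, at -0.44 (SE 0.13, adjusted p = 0.0633), and ROR2, at -0.30 (SE 0.09, adjusted p = 0.0737). With culture as a replicate block, ROR2 was not called (adjusted p = 0.428). At 24h, 1 was called lower and 2 higher, against 2.59% and 2.38% of all genes. ROR1 had 458.4, 556.3 and 506.5 normalized T>C reads at 0h and 266.4, 307.4 and 357.9 at 24h, a log2 fold change of -0.79 (SE 0.14, adjusted p = 1.89e-06). The WNT receptor FZD7 had 260.5, 368.8 and 325.3 at 0h and 545.2, 525.5 and 888.3 at 24h, a log2 fold change of 0.79 (SE 0.15, adjusted p = 8.60e-06). Neither gene's 24h samples overlapped its 0h samples, and without S9CC13_R6 neither was called (adjusted p = 0.457 and 1.00). FZD2, another such receptor, was at 0.71 (SE 0.21, adjusted p = 0.0288), and with the block its adjusted p was 0.101. The close relative CCDC88A, also called Girdin, was at -0.13 at 3h and -0.01 at 24h and was called at neither time. In total reads, 21 were tested, and 1 was called lower at 3h (ROR1). At 24h, 2 were called lower (ROR1 and ROR2) and 5 higher (FZD1, FZD2, FZD7, RYK and WNT5A), against 7.86% and 7.12% of all genes. With the block, WNT5A was not called (adjusted p = 0.106) and VANGL2 was (adjusted p = 0.0107). At 3h the median T>C change of the list was 0.07, and at 24h it was 0.12. Over the 4 lists, 6 of the 8 calls in T>C reads were lost whichever culture was left out, with adjusted p from 0.194 to 1.00; the other two were ROR1 and FZD7 at 24h. All 15 calls in total reads were lost without S9CC13_R6 (adjusted p from 0.127 to 1.00), 10 without S9CC47_R5 and 11 without S9CC47_R6.

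Between 3h and 24h directly, 1.14% of the 12034 genes were called in T>C reads. Among the 36 non-member genes named in the lists, neighbourhoods and largest falls, these were FZD2, FZD7, PRELP and MYC. In T>C reads MYC, a neighbour of LRATD2 at 1177 kb, was called at neither time against 0h. With culture as a replicate block, MYC was called at 24h (log2 fold change 0.81 in the fit without the block, adjusted p = 0.220 without and 0.0479 with it).

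The genes whose T>C reads followed each member most closely over the 9 libraries were found by Pearson correlation of log2(normalized T>C reads + 1), less the mean of each culture, among the same 8674 genes. The points share libraries and 3 times, so r is a description of likeness. For LRATD2 they were EPS8, a regulator of actin (r = 0.996), TGFBI, a secreted matrix protein (0.981), and ROR1 (0.981). For TENT5B they were SASH1 (0.989), RNF157 (0.986) and ANO10 (0.981). For OPRD1 they were LIN28A, an RNA-binding protein of early embryonic cells (0.992), RNF24 (0.989) and RASL11B (0.986). For CCDC88C they were ULK3, a kinase (0.996), OSBPL1A, a lipid-binding protein (0.991), and BACH2, a transcription factor (0.990). Each had smaller log2 fold changes than the member it followed at both times. EPS8, for example, had log2 fold changes of -0.69 and -0.83 at 3h and 24h, and LIN28A -0.53 and -0.35. ANO10 (DESeq2 adjusted p = 0.486 at 3h and 0.416 at 24h) and RNF24 (0.197 and 0.514) were called at neither time. ULK3, OSBPL1A and BACH2 were called lower at 24h only, and the rest at both times. No gene appeared for more than 1 member. Among the members, r was highest between LRATD2 and TENT5B (0.954) and lowest between OPRD1 and CCDC88C (0.663). The members were chosen for drops in these same T>C reads, so a high r between them follows in part from the choice.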

How the data were processed

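SLAM-seq libraries were made from 9 samples with a 3′ end kit without stated molecular identifiers, so intervals cover counting error only. The authors trimmed reads, mapped and counted them with slamdunk and deposited 2 tables of raw counts per gene symbol, 1 of total reads and 1 of T>C reads. The submitters' processing notes name hg38. All 9 value columns of each table were used as deposited. The members and the gene lists were chosen with earlier results of these data known.

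Protein-coding genes were kept where 3 or more samples reached 1 CPM, a count scaled to the library's total (12034 genes for T>C, 11527 for unconverted and 11708 for total reads), and their raw counts were fitted with DESeq2 1.42.0 in R 4.3.3. The terms were 1 surrogate variable from sva 3.50.0, batch and time, and independent filtering was off. Adjusted p-values are Benjamini-Hochberg over all genes tested, called under 0.1. Differences between cultures came from a fit with culture and time as terms. Percentages left compare each culture with its own 0h sample. Symbols were matched to GENCODE release 44 (18451 of 18970 directly, 383 by a RefSeq synonym). A fit without the surrogate variable was tested on simulated T>C counts, with changes at 3h only and no differences between batches or cultures. The fit with the surrogate variable was not tested in this way.

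Genes named were the 4 members, SOX9, called genes of the lists, the nearest 3 tested genes on each side (1 neighbour of TENT5B is counted but not reported here), the 3 largest called falls of other genes at 3h and at 24h averaging 50 or more normalized T>C reads and with 1 direction in all cultures, and the 3 genes most like each member. Culture pairs samples across times, since the titles name its clone and batch; deviations of paired samples correlated with a mean r of 0.18 (-0.13 to 0.57) in T>C reads. Cultures come from 2 clones and 2 batches, so p-values measure the spread between these samples. Alternatives were edgeR 4.0.16, TMM factors, total-read size factors, the culture as a replicate block, no surrogate variable, other filters and each culture left out. Total reads per library ranged from 16955633 to 28782678.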

Additional observations from a re-analysis of the deposited data

Results flagged for a closer look

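Among 36 non-member genes named, the change at 24h differed from that at 3h for 4 in the direct DESeq2 contrast of T>C reads. The log2 difference, 24h minus 3h, was 0.911 for FZD2 (SE 0.23, adjusted p = 0.0160), 0.521 for FZD7 (SE 0.16, adjusted p = 0.0765), 1.441 for MYC (SE 0.38, adjusted p = 0.0196) and -2.275 for PRELP (SE 0.45, adjusted p = 0.000130), with the same sign in 3 of 3 cultures for each. MYC's normalized T>C reads were 38.5, 75.0 and 36.6 at 0h, 13.2, 31.2 and 43.2 at 3h, and 120.4, 73.7 and 136.3 at 24h. None of these 4 calls held without S9CC13_R6 (adjusted p = 1.00 for FZD2, FZD7 and MYC and 0.286 for PRELP) or without S9CC47_R5 (0.524, 1.00, 0.245 and 0.287). FZD2 was also not called without S9CC47_R6 (adjusted p = 0.119).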

How the results depend on the processing

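The log2 fold changes of the 4 genes kept their direction in all 264 alternative values, and 239 of them moved by less than the SD between cultures. With the culture as a replicate block, the 24h value was -2.61 for TENT5B in T>C reads, -2.95 for CCDC88C in unconverted reads and -3.01 for CCDC88C in total reads, and 59 rather than 90 genes were called lower in total reads at 3h. The block ended the calls of TENT5A and ROR2 at 3h and FZD2 at 24h, added calls of TENT5A, GNAO1 and MYC at 24h, and changed no other call against 0h in T>C reads among the lists and neighbours. Without the surrogate variable those 3 member values were -2.60, -2.95 and -3.01, and the genes called lower at 3h were 61 in T>C, 28 in unconverted and 52 in total reads. For CCDC88C at 24h, unconverted reads gave -2.88 with edgeR, -2.88 with TMM factors, -2.91 without a filter and -2.87 at a mean of at least 20 counts, and total reads gave -2.97 without a filter. Size factors from total reads gave 147 genes lower and 84 higher in T>C reads at 3h, against 95 and 121, and moved the median of all genes from -0.01 to -0.08. edgeR called 485 genes lower in T>C reads at 24h, against 312, and 141 and 108 genes between clones and between batches, against 396 and 193.

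Leaving out 1 culture changed the counts most. Genes called lower in T>C reads went from 95 to between 21 and 40 at 3h, and from 312 to between 27 and 118 at 24h. In unconverted reads they went from 47 to between 9 and 83, and from 725 to between 71 and 283. In total reads they went from 90 to between 22 and 82, and from 920 to between 80 and 366. At 24h, with the surrogate variable kept, the log2 fold changes lay from -5.10 to -4.21 (T>C) and -5.25 to -4.45 (total) for LRATD2, from -2.26 to -2.19 (T>C), -2.66 to -2.20 (unconverted) and -2.42 to -2.06 (total) for TENT5B, from -2.45 to -1.92 (total) for OPRD1, and from -3.08 to -3.00 (T>C), -2.95 to -2.82 (unconverted) and at -2.88 (total) for CCDC88C. Leaving out S9CC47_R6 gave no usable surrogate variable for T>C and total reads, so that setting was run without one, a choice made after seeing the data. It gave 34 and 77 genes called lower in T>C reads at 3h and 24h, 156 in unconverted reads and 210 in total reads at 24h, 24h values of -3.12 (T>C), -2.95 (unconverted) and -3.00 (total) for CCDC88C, and of -2.48 (T>C) and -2.50 (total) for TENT5B. LRATD2 at 24h is the value that depth limits most, with 14 to 33 total reads per library.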
